A study of Mus musculus with 18 samples.

Results

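The genes described here are 28 genes of cholesterol synthesis and of the SREBP2 system that controls it, measured in bulk RNA of mouse hepatocellular carcinomas, tumours of the liver. They were taken by name, through the GENCODE M21 symbols of the Ensembl identifiers in the count table, and all 28 were found among its 55335 genes. Of these, 19 code for enzymes of synthesis and 9 for regulators and for proteins of uptake, transport and storage. All 28 had enough counts to be tested, among 17013 genes tested in all.

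Tumours came from 2 models. In the DEN+CCl4 model, mice were injected with 1 mg/kg of the carcinogen N-nitrosodiethylamine (DEN) when 14 days old, and repeatedly from the age of 8 weeks with 0.2 ml/kg of carbon tetrachloride (CCl4), which damages the liver. In the N-Ras+AKT model, hydrodynamic injection into the tail vein delivered plasmids for an activated N-Ras and for a myristoylated AKT (20 µg of each) with 1.6 µg of Sleeping Beauty transposase, which inserts them into the genome of liver cells. Each model had 3 control libraries and 3 libraries labelled as Prom1 depletion, 12 in all. Depletion mice carried CreERT2 and LacZ knocked in at Prom1 (Prom1C-L/+) and a Cre-dependent diphtheria toxin A at Rosa26 (Rosa26DTA/+), so that tamoxifen, in 4 mg doses after tumours had formed, kills cells in which the Prom1 promoter is active. Tumours were collected 16 days after the last dose in the DEN+CCl4 model and 6 days after it in the N-Ras+AKT model, so the model and this delay cannot be told apart. The strain label gives the same genotype to the control libraries, whereas the design text describes Prom1+/+;Rosa26DTA/+ littermates and also an olive oil vehicle, so what the controls lacked is unsettled. Age at collection, sex, batch and whether each library came from a separate animal are not stated in the labels, and p-values therefore measure only the spread between these libraries, which may in part be technical.

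Cells build cholesterol from acetyl-CoA by way of mevalonate, isoprenoid diphosphates, squalene and lanosterol, and the liver is a main site of this synthesis. Transcription of most of these enzymes is driven by SREBP2, the product of Srebf2, which sits in the membrane of the endoplasmic reticulum bound to Scap. When sterols are scarce, Scap escorts SREBP2 to the Golgi, where it is cut and released to the nucleus. When sterols are plentiful, Insig1 and Insig2 hold Scap back.

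Library totals ran from 31306617 to 48055812 counts. Prom1, the targeted gene, ranged in DEN+CCl4 from 48.9 to 76.7 CPM in controls and from 17.4 to 40.0 CPM after depletion, and in N-Ras+AKT from 45.4 to 78.2 CPM and from 2.17 to 16.5 CPM, with no overlap in either model. CPM are counts relative to the library size after TMM scaling. The difference in Prom1 passed the edgeR test in N-Ras+AKT (log2 −2.90, SE 0.61, adjusted p = 0.00953) and not in DEN+CCl4 (log2 −0.995, SE 0.57, adjusted p = 0.381). The knock-in lies at Prom1 itself and what the controls lacked is unsettled, so a loss of cells was not tested by this transcript. Hepatocyte markers were high in every library, with 12 of them summing to between 86950 and 321000 CPM. Replicates of a group differed far beyond counting noise, so each library counted once.

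All 28 genes were expressed in all 12 libraries, with at least 160 counts each. Per kilobase of exon, the highest mean level over the 12 libraries was that of Hmgcs1, the enzyme that makes HMG-CoA, at 132 CPM per kilobase. Insig1 followed at 118, Sc5d, which desaturates a late sterol intermediate, at 95.8 and Idi1, the isopentenyl diphosphate isomerase, at 85.6 CPM per kilobase. At the other end stood Ggps1, which leads isoprenoids away from sterols to geranylgeranyl diphosphate, at 2.27 CPM per kilobase. Mylip, a ubiquitin ligase that limits lipoprotein uptake, was at 2.19 and Soat1, which makes cholesterol esters, at 0.705 CPM per kilobase. Srebf2 (9.86 CPM per kilobase) and Scap (9.37) were among the 7 lowest, far below the Insig1 transcript. Exons of several members overlap those of other genes, by 26.7% of bases in Fdps, 18.3% in Fdft1 and at most 13.2% in the rest, and Acat2 has a near-identical copy, Acat3. Levels of these genes are less certain, since no source used here says whether counting used strand.

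**Figure D1:**
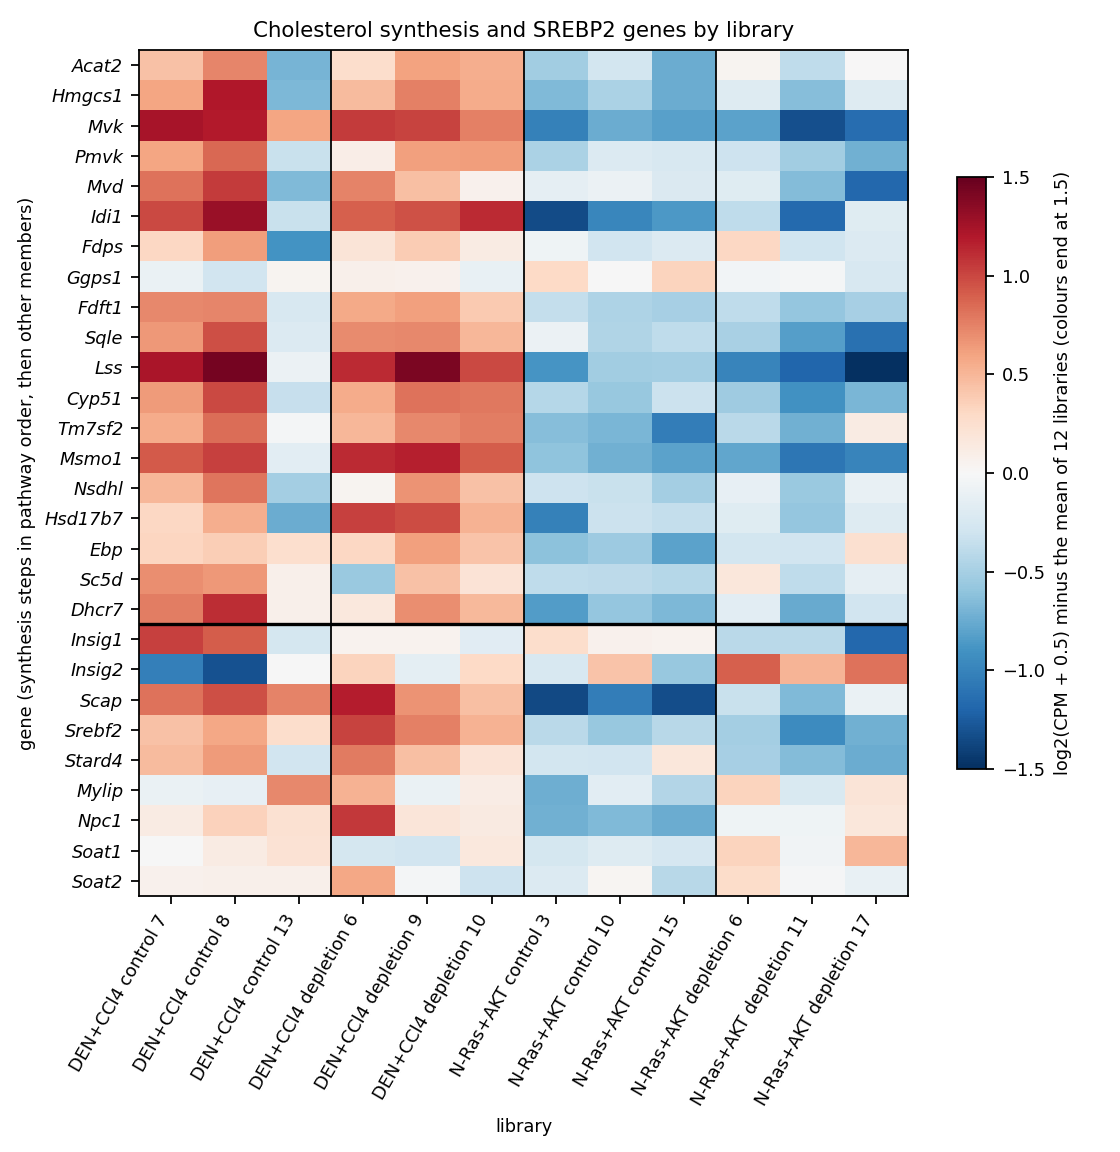
Each row is 1 of the 28 genes and each column 1 of the 12 libraries, coloured by log2(CPM + 0.5) minus the gene's mean over the 12 libraries (colours end at 1.5 either way). The synthesis genes above the thick line are mostly red (higher) in the 6 DEN+CCl4 libraries and blue (lower) in the 6 N-Ras+AKT libraries, except for DEN+CCl4 control 13 and for Ggps1.

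Synthesis genes varied together. Over the 171 pairs of the 19 genes the median Pearson correlation of log2 CPM was 0.81 across the 12 libraries and 0.76 after group means were subtracted, and 153 pairs were positive before that subtraction. Libraries within a group share model and treatment, and all genes of a library share its depth and scaling, so these are descriptions. Each of the 19 was also set against the mean of the other synthesis genes. Fdft1, the squalene synthase, followed that mean most closely (r = 0.99), and Ggps1 ran against it (r = −0.41). Much of the variation within groups came from 1 library. DEN+CCl4 control 13 had the lowest value of its group in 18 of the 19 synthesis genes, and without it the median correlation with group means subtracted was 0.33.

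Hmgcs1 was at 823 and 1253 CPM in DEN+CCl4 controls 7 and 8 and at 342 CPM in control 13. Idi1 was at 487, 598 and 194 CPM in the same 3 libraries. In both genes control 13 lay below all 3 depletion libraries of its model. Averaged over the 19 synthesis genes, control 13 lay 0.26 below the mean of the 12 libraries on the log2 scale, against 0.64 and 0.85 above it in controls 7 and 8. Control 13 was not low in hepatocyte markers: its mean over 12 of them lay 0.81 above the mean of all libraries, against 0.58 and 0.52 in controls 7 and 8. Its difference from controls 7 and 8 was not limited to synthesis genes. Over all genes with enough counts, the chi-square per degree of freedom was 239 and 141, against 62.55 between controls 7 and 8.

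The clearest contrast was between the models. In the controls, 13 of 19 synthesis genes were lower in N-Ras+AKT than in DEN+CCl4 tumours and none was higher, with a median log2 difference of −0.92 (all genes tested: 0.04). Of the 9 other genes, 3 were lower and none higher, with a median of −0.53. That makes 16 of 28 lower at an adjusted p under 0.05 (edgeR quasi-likelihood test, Benjamini-Hochberg over all genes tested), where 19.8% of all genes tested were lower and 20.8% higher. In 15 of the 28, every N-Ras+AKT control lay below every DEN+CCl4 control, as in 26.1% of all genes tested.

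Among the mevalonate steps 4 of 7 genes were lower. Mvk, mevalonate kinase (chromosome 5, 114444269 to 114460591, plus strand, GRCm38), was at 58.7, 57.05 and 37.35 CPM in DEN+CCl4 controls 7, 8 and 13. In N-Ras+AKT controls 3, 10 and 15 it was at 12.0, 14.6 and 13.8 CPM. The groups stood far apart, and even control 13 had more than any N-Ras+AKT library. The difference was 3.79-fold (log2 −1.92, SE 0.19, adjusted p = 3.67e-05). Idi1 (chromosome 13, 8885501 to 8892451, plus strand) was at 95.7, 123 and 134 CPM in the N-Ras+AKT controls, below the 194 CPM of control 13, and was 3.63-fold lower (log2 −1.86, SE 0.37, adjusted p = 0.00239). Hmgcs1 (chromosome 13, 119690379 to 119708260, plus strand) was at 344, 395 and 326 CPM, so that the groups overlapped at control 13, and was 2.27-fold lower (adjusted p = 0.0189). Pmvk, phosphomevalonate kinase, was lower as well (log2 −0.76, adjusted p = 0.0361). Acat2 (−0.78), which joins acetyl-CoA units, Mvd (−0.73), which makes isopentenyl diphosphate, and Fdps (−0.33), which makes farnesyl diphosphate, did not pass, nor did Ggps1, at +0.34 (adjusted p = 0.064).

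All 3 squalene and lanosterol steps were lower. Lss, lanosterol synthase (chromosome 10, 76531588 to 76557138, plus strand), was at 367, 425 and 147 CPM in DEN+CCl4 controls 7, 8 and 13 and at 84.6, 109 and 110 CPM in N-Ras+AKT controls 3, 10 and 15. The groups did not overlap, though control 13 lay nearer to the N-Ras+AKT controls than to its own group. Its difference was 3.09-fold (log2 −1.63, SE 0.36, adjusted p = 0.00444). Fdft1 (log2 −0.92) and Sqle, the squalene epoxidase (−0.85), were 1.89-fold and 1.80-fold lower.

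From lanosterol on, 6 of 8 genes were lower. Msmo1, a sterol C4-methyl oxidase (chromosome 8, 64718139 to 64733792, minus strand), was at 434.5, 467 and 206 CPM in DEN+CCl4 controls 7, 8 and 13 and at 152, 139 and 132 CPM in N-Ras+AKT controls 3, 10 and 15. It did not overlap between the groups (log2 −1.39, SE 0.25, adjusted p = 0.00117). Dhcr7, which makes cholesterol in the last step (−1.41), Tm7sf2, a sterol C14 reductase (−1.29), Ebp, a sterol isomerase (−0.97), Cyp51, the lanosterol demethylase (−0.97), and Sc5d (−0.90) were lower too. Nsdhl (−0.75) and Hsd17b7 (−0.67), which remove the C4 methyl groups with Msmo1, had the same sign and did not pass (adjusted p = 0.0527 and 0.0978).

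Among regulators the contrast was largest in Scap. Scap (chromosome 9, 110333288 to 110384950, plus strand) was at 103, 115 and 98.6 CPM in DEN+CCl4 controls 7, 8 and 13 and at 22.7, 28.5 and 23.0 CPM in N-Ras+AKT controls 3, 10 and 15. The 2 sets were tight and far apart, and control 13 was no exception here. The difference was 4.27-fold (log2 −2.10, SE 0.20, adjusted p = 2.92e-05), the largest of the 28. Srebf2 (chromosome 15, 82147181 to 82205379, plus strand) was at 87.4, 96.3 and 77.45 CPM against 48.7, 43.2 and 48.3 CPM. It did not overlap either and was 1.86-fold lower (log2 −0.90, SE 0.15, adjusted p = 0.00075). Insig1 (log2 −0.53) and Insig2 (0.60) did not pass (adjusted p = 0.171 and 0.176).

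Of the genes of uptake and transport, Npc1, which moves cholesterol out of lysosomes, was at 102, 119.5 and 110 CPM in DEN+CCl4 controls and at 56.7, 59.2 and 55.7 CPM in N-Ras+AKT controls. With no overlap, it was 1.93-fold lower (log2 −0.95, SE 0.21, adjusted p = 0.00375). Mylip (−0.70) and Stard4, a carrier of cholesterol between membranes (−0.44), did not pass. Neither did the storage genes Soat1 (−0.38) and Soat2, the form of hepatocytes and intestine (−0.27), although both lay below all DEN+CCl4 controls in all 3 N-Ras+AKT controls.

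**Figure D2:**
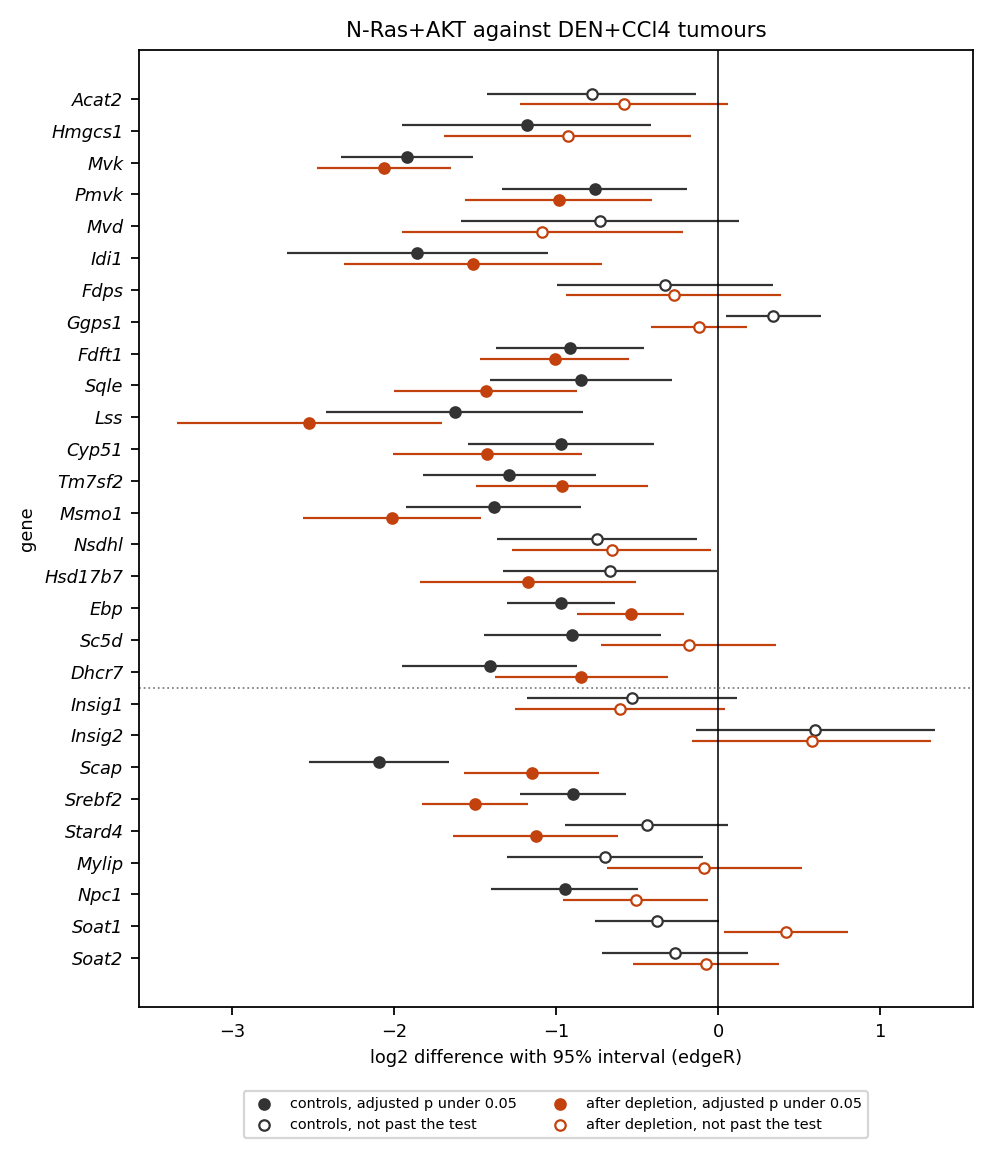
Points are log2 differences of N-Ras+AKT against DEN+CCl4 tumours for each of the 28 genes, in controls (dark grey) and after depletion (orange), with 95% intervals from edgeR. Filled points passed the test. Most lie left of 0, with Scap at −2.10 in the controls and Lss at −2.53 after depletion.

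Without DEN+CCl4 control 13, 23 members were lower and 1 was higher, where 2707 of all 17592 genes tested were lower and 2642 higher. Of synthesis genes 18 of 19 were lower, at a median of −1.12. Control 13 was the lowest of its group in 18 of 19 synthesis genes, so leaving it out was bound to widen their differences. Without that library, Insig1 (log2 −0.84, adjusted p = 0.0151) and Insig2 (1.10, adjusted p = 0.0144) passed in opposite directions. Acat2 (−1.10), Mvd (−1.10), Fdps (−0.66), Nsdhl (−1.05), Hsd17b7 (−0.97) and Stard4 (−0.68) also passed as lower without it (adjusted p from 0.00185 to 0.0274). Mylip passed without DEN+CCl4 control 8 or N-Ras+AKT control 10 (adjusted p = 0.0462 and 0.0486), Ggps1, as higher, without N-Ras+AKT control 10 (0.0267) and Soat1 in a fit of only the groups compared (log2 −0.40, adjusted p = 0.0461). Calls that ended without a library were those of Hmgcs1 (adjusted p = 0.0932, 0.0574 and 0.0612 without DEN+CCl4 control 8 and N-Ras+AKT controls 3 and 15), of Cyp51 (0.058 without DEN+CCl4 control 8) and of Sc5d (0.054 without DEN+CCl4 control 7). Those of Sqle ended without DEN+CCl4 controls 7 or 8 or N-Ras+AKT controls 10 or 15 (0.0613 to 0.0947). That of Pmvk ended without any of 5 controls, with DEN+CCl4 control 13 the exception (0.0648 to 0.151). The remaining 11 calls held in each alternative other than plain library totals. With library totals in place of TMM scaling, the median of all genes moved from 0.04 to 0.68 and the members called were 7 lower and 2 higher (Ggps1 and Insig2), against 9401 genes higher and 1059 lower overall (3538 and 3363 with TMM). The median of the synthesis genes moved with it, from −0.92 to −0.27. Relative to the median of all genes it lay at −0.95 under both scalings. A change of scaling shifts all genes by nearly the same amount, so this relative value could hardly differ.

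Other features of the tumours differed in the same comparison. Hepatocyte markers were lower in 10 of 12 (median log2 −1.18), summing to 255700 to 321000 CPM in DEN+CCl4 controls and 98710 to 117900 CPM in N-Ras+AKT controls. Cholangiocyte markers were higher in 7 of 7 tested, summing to 196.7 to 493.5 CPM and 7144 to 10340 CPM. Endothelial markers were lower in 6 of 8 (378.7 to 405.2 CPM and 113 to 156 CPM), and no marker of these lists was at 0 in either group. In bulk tissue, fewer cells of a type and less RNA per cell cannot be told apart, and the part of cell composition in these differences was not tested. The mean log2 deviation of the synthesis genes minus that of the hepatocyte markers was computed for each library. It was −0.23 ± 0.74 in DEN+CCl4 controls and 0.16 ± 0.20 in N-Ras+AKT controls (SD, n = 3). In control 13 that value was −1.07, and in controls 7 and 8 it was 0.057 and 0.33. These values are a description and were not tested, and the markers themselves differ between the models.

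**Figure D3:**
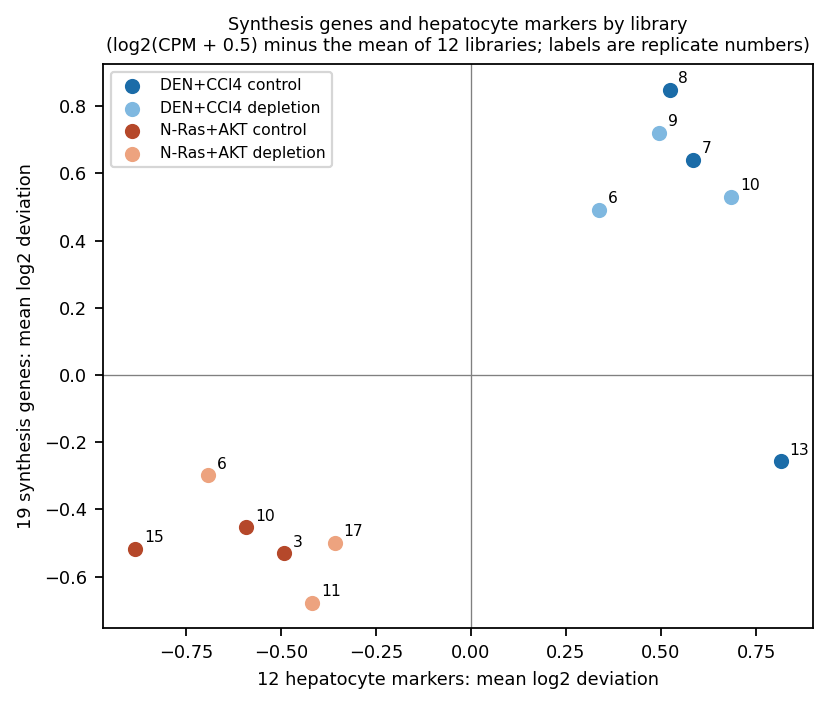
Each point is a library, placed by its mean log2 deviation over 12 hepatocyte markers (horizontal) and over the 19 synthesis genes (vertical), with its replicate number. All 6 N-Ras+AKT libraries lie low on both axes, 5 DEN+CCl4 libraries lie high on both, and DEN+CCl4 control 13 is high in hepatocyte markers (0.81) and low in synthesis (−0.26).

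Promoter sequences are shown because SREBP2 acts through a short sterol regulatory element and NF-Y, its partner at many of these genes, binds CCAAT boxes. RefSeq promoters (GRCm38.p6, 250 bases before to 50 after a start site) were matched for 22 of the 28 genes, 28 promoters in all. Those of Fdft1, Fdps, Sqle, Stard4, Npc1 and Soat2 were not matched. Hmgcs1 is shown for its match to the sterol regulatory element, Mvk for the stretch it shares with its neighbour Mmab, Lss and Scap as the genes with the largest differences between the models. Capitals mark the sterol regulatory element TCACNCCAC and the CCAAT box CCAAT, searched on both strands, so that a box on the other strand reads ATTGG. All lie on the plus strand and stop before the first annotated start: Hmgcs1 at chr13:119690101-119690350, Mvk at chr5:114444061-114444268, Lss at chr10:76531355-76531587 and Scap at chr9:110333038-110333287.
Hmgcs1: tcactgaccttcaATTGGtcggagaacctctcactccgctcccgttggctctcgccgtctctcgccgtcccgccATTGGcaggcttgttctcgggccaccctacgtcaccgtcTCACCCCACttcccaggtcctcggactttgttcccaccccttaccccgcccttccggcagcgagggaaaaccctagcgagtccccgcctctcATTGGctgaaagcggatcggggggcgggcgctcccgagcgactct
Mvk: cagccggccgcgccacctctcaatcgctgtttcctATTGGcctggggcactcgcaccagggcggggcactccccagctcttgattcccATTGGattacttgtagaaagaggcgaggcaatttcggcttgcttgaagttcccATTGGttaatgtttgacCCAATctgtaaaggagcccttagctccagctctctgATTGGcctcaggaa
Lss: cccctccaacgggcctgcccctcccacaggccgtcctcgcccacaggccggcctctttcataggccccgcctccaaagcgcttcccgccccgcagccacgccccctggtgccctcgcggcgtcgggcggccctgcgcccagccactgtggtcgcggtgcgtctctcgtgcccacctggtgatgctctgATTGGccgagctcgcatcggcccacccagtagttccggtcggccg
Scap: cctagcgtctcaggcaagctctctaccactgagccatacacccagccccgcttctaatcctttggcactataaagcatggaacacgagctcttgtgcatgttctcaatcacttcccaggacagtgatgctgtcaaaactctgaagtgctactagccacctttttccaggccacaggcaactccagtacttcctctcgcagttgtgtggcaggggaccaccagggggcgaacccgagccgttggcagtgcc

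The element TCACNCCAC was found in 1 of 28 member promoters, that of Hmgcs1, where it begins 137 bases before the start site, and in 1.24% of 32851 promoters of the same length. CCAAT was found in 71.4% of member promoters and in 78.9% of the 19 promoters of synthesis genes, against 37.4% of all promoters. The GC box GGGCGG was found in 82.1% of member promoters against 35.7%, and the E-box CACGTG in 21.4% against 7.15%. The stretch of Mvk holds 5 CCAAT boxes in 208 bases, that of Hmgcs1 holds 3 and that of Lss 1. That of Scap, the gene that differed most between the controls, holds neither motif. A match is a description of letters and not a binding site, and letters that are absent from this window say nothing of the factor.

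After depletion the contrast between the models was of the same kind. In N-Ras+AKT depletion libraries 15 of 28 genes were lower than in DEN+CCl4 depletion libraries and none was higher, against 15.8% of all genes tested lower and 17.9% higher. Of synthesis genes 12 of 19 were lower (median log2 −0.99, all genes 0.03), and of the others Srebf2, Scap and Stard4. In 20 of the 28, every N-Ras+AKT depletion library lay below every DEN+CCl4 one, as in 22.3% of all genes tested. Lower in both comparisons were 13 genes, out of 16 in the controls and 15 after depletion. The comparisons share no library, but both hold the difference of the models and come from 1 fit. The share of all genes tested that were lower in both was not counted, so this overlap is not set against a background. Hmgcs1, Npc1 and Sc5d were called between the controls alone, and Hsd17b7 and Stard4 after depletion alone. Of these 5, none passed the test of the difference between the comparisons (smallest adjusted p = 0.188, Stard4). Npc1 passed that test without DEN+CCl4 depletion 6 (log2 0.80, adjusted p = 0.0189), in which it was at 195 CPM against 106.5 and 103 CPM in depletions 9 and 10, and with DEN+CCl4 depletion 6 and N-Ras+AKT depletion 17 left out together (0.0304).

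Lss was at 341, 419 and 311 CPM in DEN+CCl4 depletion libraries 6, 9 and 10 and at 78.8, 68.2 and 39.0 CPM in N-Ras+AKT depletion libraries 6, 11 and 17. The gap was wide, with depletion 17 lowest of all 12 libraries. It was the largest of the 28 after depletion, at 5.76-fold (log2 −2.53, SE 0.37, adjusted p = 0.000555). Mvk (−2.06), Msmo1 (−2.02), Idi1 (−1.51), Sqle (−1.44) and Cyp51 (−1.43) followed among the enzymes. Srebf2 was at 130, 109 and 92.8 CPM against 45.1, 33.2 and 38.8 CPM. No library of 1 model came near the other, and the difference was 2.83-fold (log2 −1.502, SE 0.15, adjusted p = 4.48e-05). Stard4 was at 229, 182 and 153 CPM against 94.1, 84.5 and 79.1 CPM, again with no overlap, and was 2.18-fold lower (log2 −1.13, SE 0.23, adjusted p = 0.0034). Insig1 and Insig2 did not pass (log2 −0.61 and 0.58, adjusted p = 0.137 and 0.209), though each kept the groups apart, Insig1 lower and Insig2 higher.

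Calls that ended without a library were those of Ebp (adjusted p = 0.0702, 0.0759 and 0.0694 without DEN+CCl4 depletion 9 and N-Ras+AKT depletions 6 and 11) and of Dhcr7 (0.073 and 0.0748 without DEN+CCl4 depletion 9 and N-Ras+AKT depletion 11). That of Hsd17b7 ended when DEN+CCl4 depletion 6 and N-Ras+AKT depletion 17 were both left out (0.0636). Calls were gained by Npc1, as lower, without DEN+CCl4 depletion 9 or 10 (0.0454 and 0.0317), by Soat1, as higher, without DEN+CCl4 depletion 10 or N-Ras+AKT depletion 11 (0.0317 and 0.032) and by Mvd, as lower, without N-Ras+AKT depletion 6 (0.0467). Hmgcs1 and Mvd passed as lower with DESeq2 (0.0189 and 0.0124), and Mvd also with limma-voom (0.0487). In a fit of only the groups compared, Hmgcs1 (0.00947), Acat2 (0.0283), Mvd (0.0281) and Nsdhl (0.0397) passed as lower. Ebp lost its call in that fit (0.058). With library totals the median of all genes moved from 0.03 to 0.35, and 12 members were lower and 2 higher (Insig2 and Soat1), against 5578 genes higher and 1187 lower overall (3051 and 2689 with TMM). The median of the synthesis genes moved from −0.99 to −0.66. Relative to the median of all genes it lay at −1.02 and −1.01, a value that a shift of all genes leaves nearly unchanged. Hepatocyte markers were lower in 8 of 12 after depletion (198600 to 270300 CPM against 86950 to 93690 CPM). T and NK cell markers were higher in 7 of 9 (sums of 0.627 to 1.45 CPM and 4.27 to 7.74 CPM), macrophage markers in 5 of 10 (403 to 576 CPM and 655 to 865.5 CPM) and B cell markers in 4 of 6, with 1 lower (13.3 to 25.7 CPM and 5.31 to 12.2 CPM). The part of these markers in the members' differences was not tested.

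Depletion in the N-Ras+AKT model touched few of these genes. Scap, Npc1, Soat1 and Ebp rose and none of the 28 fell, 4 of 28 against 12.8% of all genes tested higher and 10.8% lower. The share of members that rose was thus close to that of all genes. Of synthesis genes 1 of 19 rose, with a median log2 difference of 0.13, and of the 9 others 3 rose, with a median of 0.55 (all genes −0.02). In either direction 4 of 28 members were called, against 23.7% of all genes tested. In 5 of the 28 every depletion library lay above every control, and in 5 every one lay below. Of the 17013 genes tested, 3646 lay above and 3663 below in this way, so such separation was not particular to the members.

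Scap was at 22.7, 28.5 and 23.0 CPM in controls 3, 10 and 15 and at 46.4, 36.9 and 55.0 CPM in depletion libraries 6, 11 and 17. Every depletion library was higher than every control. Scap rose 1.87-fold (log2 0.90, SE 0.19, adjusted p = 0.00841) and passed in each of 13 alternatives. Even so it stayed below all 6 DEN+CCl4 libraries, of which the lowest had 80.7 CPM. The 13.2% of its exon bases that overlap another gene are those of 5830462I19Rik.

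Npc1 was at 56.7, 59.2 and 55.7 CPM in controls and at 89.5, 89.2 and 105 CPM after depletion. The controls lay within a narrow band and all depletion libraries above it (log2 0.73, SE 0.21, adjusted p = 0.0266). Soat1 was at 5.54, 5.85 and 5.63 CPM in controls and at 8.65, 6.52 and 9.75 CPM after depletion. This too was without overlap, at a low level (log2 0.55, SE 0.17, adjusted p = 0.0406). Ebp was at 71.5, 75.2 and 63.1 CPM in controls and at 90.7, 90.3 and 130.5 CPM after depletion. Depletion 17 was the highest, and the groups did not overlap (log2 0.57, SE 0.15, adjusted p = 0.0205). Ebp and Npc1 lost their calls without control 3 (adjusted p = 0.0532 and 0.0736), control 15 (0.079 and 0.0824) or depletion 17 (0.0906 and 0.104). Soat1 lost its call without control 3, 10 or 15 or depletion 6 or 17 (0.0664 to 0.177).

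**Figure D4:**
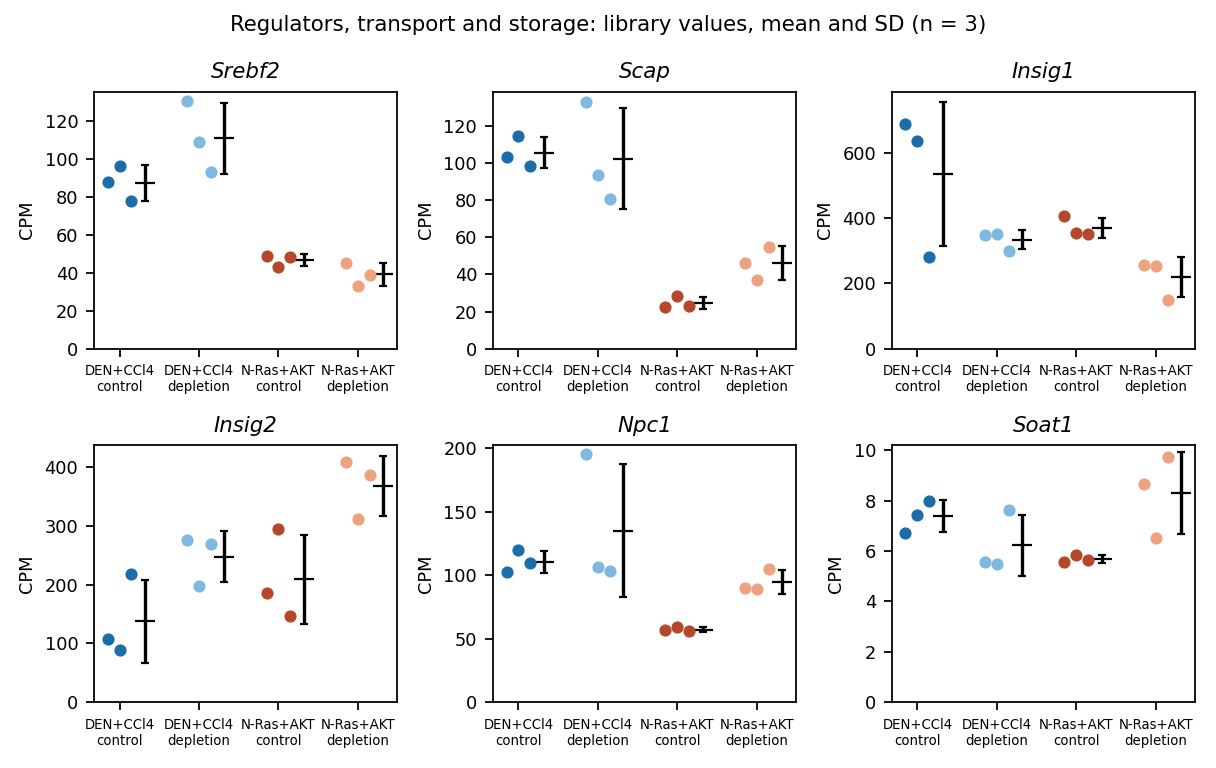
CPM of Srebf2, Scap, Insig1, Insig2, Npc1 and Soat1 in each library (points) with group mean and SD (n = 3). Scap and Npc1 rise after depletion in N-Ras+AKT tumours, and Insig1 and Insig2 lie at opposite ends, with 2 DEN+CCl4 controls high in Insig1 (690 and 635 CPM) and low in Insig2 (107 and 88.3 CPM).

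Members outside these 4 stayed uncalled, though Ggps1 passed as lower without control 10 (log2 −0.44, adjusted p = 0.0391). Lss was at 84.6, 109 and 110 CPM in controls and 78.8, 68.2 and 39.0 CPM after depletion. The groups did not overlap, but the difference did not pass (log2 −0.71, SE 0.35, adjusted p = 0.17). Likewise lower in every depletion library without a call were Sqle (−0.49, adjusted p = 0.183), Ggps1 (−0.34, 0.0899) and Stard4 (−0.51, 0.127). Srebf2 had a log2 difference of −0.26 (adjusted p = 0.224), so that the rise of Scap stood beside a transcription factor that gave no call. Plain library totals gave 1 gene higher (Scap) and 2 lower (Ggps1 and Insig1), with the median of all genes at −0.23 in place of −0.02 and 1326 genes higher and 3227 lower (2186 and 1841 with TMM).

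Cell markers moved in this comparison as well. Cholangiocyte markers fell in 5 of 7 tested, from sums of 7144 to 10340 CPM to 309.3 to 3485 CPM. Macrophage markers rose in 7 of 10, from 305 to 472.3 CPM to 655 to 865.5 CPM. T and NK cell markers rose in 5 of 9 (1.98 to 3.18 CPM and 4.27 to 7.74 CPM) and B cell markers in 2 of 6. Endothelial markers rose in 3 of 8 (113 to 156 CPM and 148.7 to 185.7 CPM) and stellate cell and fibroblast markers in 1 of 8. Hepatocyte markers rose in 3 of 12, while 3 lay below all controls without a call. Hepatocyte sums did not rise (98710 to 117900 CPM and 86950 to 93690 CPM). None of these markers was at 0 in either group, and their part in the rise of Scap, Npc1, Soat1 and Ebp was not tested.

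In the DEN+CCl4 model none of the 28 genes was called after depletion, where 0.37% of all genes tested were called in either direction. At an unadjusted p under 0.05 there were 4, Hsd17b7, Insig1, Insig2 and Srebf2, against 3186 of the 17013 genes tested, and DESeq2 called 0 members and 1066 genes. No member separated the groups, as 27.5% of all genes tested did. The synthesis median was 0.10, or 0.36 without control 8 and −0.17 without control 13, so its sign rested on the controls.

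Intervals show what these libraries could tell. The 95% interval of the log2 difference was −0.48 to 0.31 for Mvk and −0.46 to 0.37 for Scap. For Hmgcs1, in which the controls spread from 342 to 1253 CPM, it was −0.71 to 0.80, and for Idi1 −0.59 to 0.97. Hsd17b7, an enzyme of C4 demethylation, was at 117, 138 and 56.2 CPM in controls and 192, 187 and 135 CPM after depletion. Control 8 overlapped with depletion 10, and the difference did not pass (log2 0.72, SE 0.30, adjusted p = 0.229). Srebf2 was at 87.4, 96.3 and 77.45 CPM in controls and at 130, 109 and 92.8 CPM after depletion, with 1 crossing, and did not pass either (log2 0.35, SE 0.15, adjusted p = 0.237). No cell type marker passed the adjusted test in this comparison, but several lists were low after depletion. Endothelial markers lay below all controls in 7 of 8 (median log2 −0.94, 7 at an unadjusted p under 0.05), with sums of 378.7 to 405.2 CPM in controls and 140.6 to 273.2 CPM after depletion. T and NK cell markers did so in 6 of 9 (sums of 2.63 to 3.73 CPM and 0.627 to 1.45 CPM) and B cell markers in 3 of 6 (median −1.63). Stellate cell and fibroblast markers did so in 5 of 8 (503.5 to 603.2 CPM and 160.2 to 433.6 CPM). For cholangiocyte markers it was 2 of 7 tested (196.7 to 493.5 CPM and 48.12 to 154.9 CPM). Hepatocyte and macrophage markers went both ways. Of hepatocyte markers 3 of 12 lay below all controls and 2 above (median log2 −0.25). Of macrophage markers 3 of 10 lay below and 2 above (median log2 0.04). Among all 17013 genes tested, 2715 lay below all controls and 1960 above. The part of these markers in the members' values was not tested.

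The depletion effects of the models differed in 1 of 28 genes, against 11.6% of all genes tested. That gene was Scap: its log2 difference was −0.04 in DEN+CCl4 and 0.90 in N-Ras+AKT (difference 0.94, SE 0.27, adjusted p = 0.0434). The same test says that the gap between the models narrowed in Scap, from −2.10 in the controls to −1.15 after depletion. This call was not stable. It ended without DEN+CCl4 control 7, 8 or 13 or depletion 9 or 10 (adjusted p = 0.0839, 0.0921, 0.0662, 0.0987 and 0.0737). It also ended without N-Ras+AKT control 3 or 15 or depletion 6 or 17 (0.0927, 0.103, 0.0797 and 0.117) and with library totals (0.146). Soat1 (log2 0.80, adjusted p = 0.0589), Srebf2 (−0.61, 0.0821) and Ggps1 (−0.46, 0.138) came next and did not pass. Soat1 passed with DESeq2 (0.0326) and without DEN+CCl4 depletion 10 (0.0292) or N-Ras+AKT depletion 11 (0.0237), and Srebf2 without DEN+CCl4 depletion 10 (0.0478). Srebf2 and Ggps1 passed with library totals (0.0278 and 0.0369), under which the median of all genes was −0.36.

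**Figure D5:**
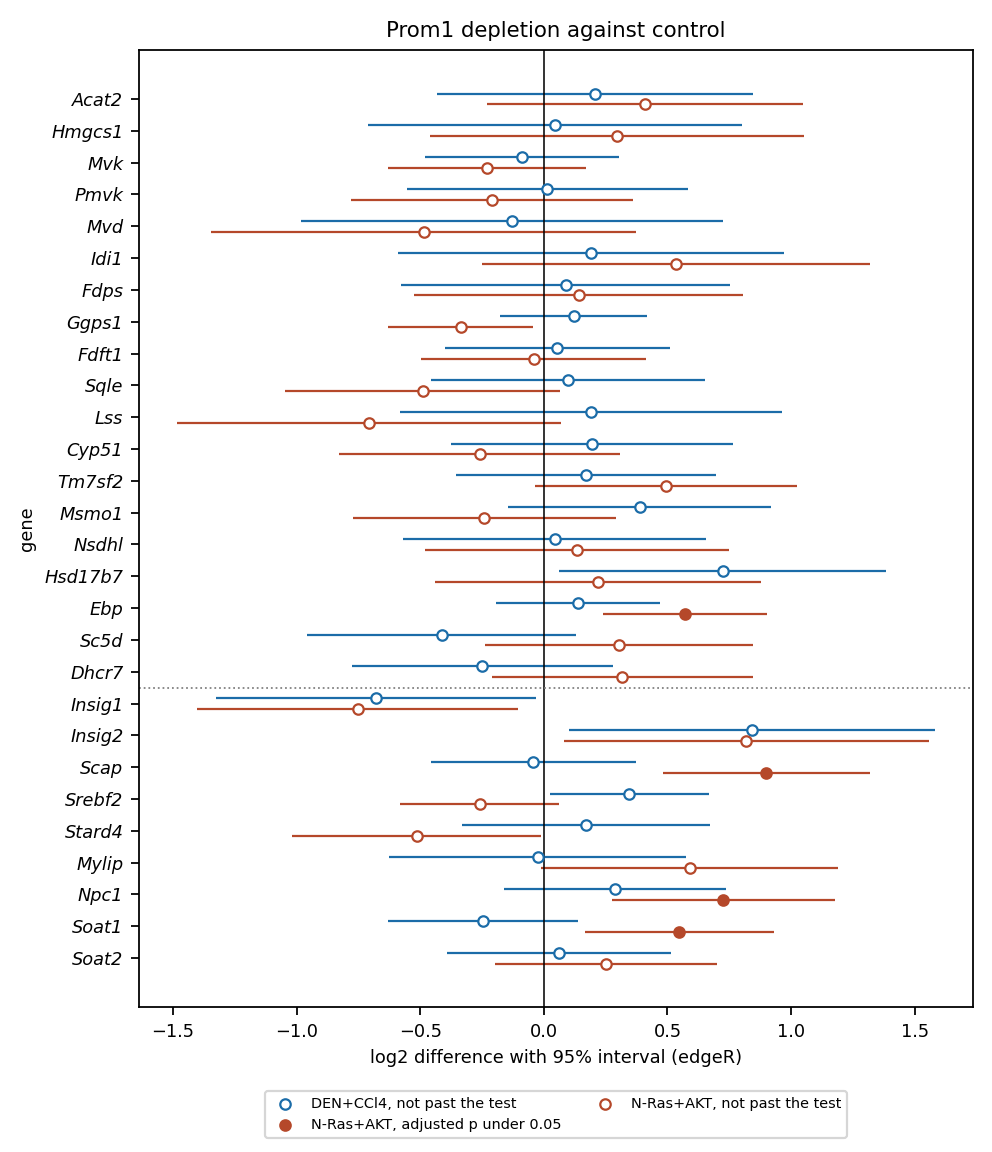
Points are log2 differences of depletion against control for each of the 28 genes in DEN+CCl4 (blue) and N-Ras+AKT tumours (brown-red), with 95% intervals from edgeR. The filled points, which passed, are Ebp, Scap, Npc1 and Soat1 in N-Ras+AKT, and the intervals of the models lie apart in Scap.

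Insig1 and Insig2 had differences of opposite sign with depletion in both models. Insig1, itself a target of SREBP2, was at 690, 635 and 281 CPM in DEN+CCl4 controls 7, 8 and 13 and at 350, 352 and 301 CPM in depletion libraries 6, 9 and 10. Insig2, which in liver does not follow SREBP2 in the same way, was at 107, 88.3 and 218 CPM and at 275, 197 and 269 CPM. Control 13 thus lay near the depletion libraries in both genes. In N-Ras+AKT, Insig1 went from 406, 353 and 352 CPM to 255, 255 and 149 CPM and Insig2 from 185, 294 and 147 CPM to 408, 311 and 386 CPM. In that model neither gene overlapped between the groups.

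No Insig difference passed in edgeR. In DEN+CCl4 the log2 differences were −0.68 for Insig1 and 0.84 for Insig2 (adjusted p = 0.244 and 0.213), and in N-Ras+AKT −0.75 and 0.82 (0.0865 and 0.1). DESeq2 called both in N-Ras+AKT (0.0428 and 0.0482), and Insig2 also passed there without control 10 (log2 1.15, adjusted p = 0.0369). The ratio of Insig1 to Insig2 in CPM was 6.46, 7.19 and 1.29 in DEN+CCl4 controls 7, 8 and 13 and 1.27, 1.79 and 1.12 after depletion. It was 2.19, 1.20 and 2.39 in N-Ras+AKT controls and 0.626, 0.819 and 0.387 after depletion. N-Ras+AKT depletion libraries were the only ones with more Insig2 than Insig1. Across the 12 libraries the correlation of the pair was −0.87, and −0.67 with group means subtracted.

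Genes next to the pathway were followed too. From 37 further genes of SREBP processing, sterol efflux and lipoproteins, sterol breakdown and other branches of the mevalonate pathway, 11 rose and 2 fell with depletion in N-Ras+AKT (12.8% and 10.8% of all genes tested). None was called in DEN+CCl4 by edgeR, with 7 at an unadjusted p under 0.05, against 3186 of the 17013 genes tested. Of 5 genes of sterol breakdown, 4 rose in N-Ras+AKT. The remaining gene, at a low level, was lower in every depletion library than in every control, without a call (log2 −1.63). Cyp7a1, the rate-limiting enzyme of bile acid synthesis, was at 10.7, 29.9 and 23.6 CPM in controls 3, 10 and 15 and at 131, 132 and 245 CPM in depletion libraries 6, 11 and 17. The lowest depletion library was far above the highest control (log2 2.99, SE 0.53, adjusted p = 0.00543). In DEN+CCl4 Cyp7a1 was at 36.6, 56.7 and 29.1 CPM in controls and at 5.64, 15.3 and 21.1 CPM after depletion. That was lower in all 3 libraries without a call (log2 −1.54), and the difference of the effects passed (log2 4.53, SE 0.73, adjusted p = 0.00986).

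Cyp7b1, an oxysterol hydroxylase, was at 3.61, 5.98 and 6.12 CPM in N-Ras+AKT controls and at 38.1, 23.5 and 123 CPM after depletion. The spread after depletion was wide, and no value came near the controls (log2 3.55, SE 0.64, adjusted p = 0.00578). Cyp27a1, a sterol 27-hydroxylase (log2 1.77), Hsd3b7, of bile acid synthesis (1.76), Acss2, which makes acetyl-CoA (1.55), and Lcat, which esterifies cholesterol on lipoproteins (1.33), rose as well. Among these 6, Cyp27a1 and Acss2 lost their calls without control 3, control 15 or depletion 17 (adjusted p up to 0.0605 and 0.0717). The rise of 4 of 5 sterol breakdown genes stood beside a median of 0.13 for the synthesis genes.

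Between the controls 14 of the 37 genes were lower in N-Ras+AKT and 6 were higher, against 19.8% and 20.8% of all genes tested. Among the lower ones were the sterol exporters Abcg8 (log2 −2.82) and Abcg5 (−1.99), the endocytic receptor Lrp1 (−2.03), Lcat (−1.32) and the receptor of high-density lipoprotein Scarb1 (−1.20), with adjusted p from 8.05e-05 to 0.00422. These 5 kept their calls in every alternative run. After depletion 10 were lower and 6 higher, against 15.8% and 17.9%. Cyp7a1 (3.59) and Cyp7b1 (3.34) were then higher in N-Ras+AKT, while Abcg8 (−1.72), Abcg5 (−1.61) and Lbr, a sterol reductase of the nuclear envelope (−1.19), were lower.

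Of 9642 protein-coding genes outside the list with a mean of at least 5 CPM, Mmab followed the 19 synthesis genes most closely across the 12 libraries (r = 0.96, and 0.89 with group means subtracted). Mmab, an enzyme of cobalamin metabolism, lies head to head with Mvk on chromosome 5, and their start sites are 209 bases apart. It averaged 38.2 and 40.8 CPM in DEN+CCl4 controls and depletion libraries and 15.9 and 17.1 CPM in those of N-Ras+AKT. Next came Polr3g (r = 0.95), Ficd (0.93), Atp6v0a1 (0.93), Fto (0.92), Utp14b (0.92), Rpap1 (0.91) and Dst (0.91). With group means subtracted they stood between 0.63 and 0.88, so part of each likeness is the step between the models.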

How the data were processed

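RNA counts per gene were deposited by the authors as 1 table for the 12 bulk tumour libraries; STAR 2.7.3, RSEM 1.3.1 and mm10 are named without a role in the submitters' processing notes, and the values may be rounded estimates. Annotation, strand setting and filters are named in no source used here. Single-cell samples of the series (6) were not analysed here. The 28 genes and all gene lists were chosen with earlier results of these data known. Identifiers were matched to GENCODE M21 (181 of 55335 unmatched, 0.00642% of counts).

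Genes passing edgeR's expression filter (17013) were TMM scaled (factors 0.773 to 1.323) and fitted as 4 group means over 12 libraries with edgeR 4.0.16 (R 4.3.3), using robust quasi-likelihood tests with 8 residual degrees of freedom and Benjamini-Hochberg adjustment over all genes tested, at 0.05. The biological coefficient of variation was 0.238. CPM were computed here on TMM-scaled library sizes, and log2 values, used for correlations and deviations, are of CPM + 0.5. All 28 genes are named; from the 37 neighbouring pathway genes, at most 6 called per comparison with the largest changes, of which 1 is not reported here; and the 8 nearest of other genes by correlation. The analysis was tested on simulated data. Alternatives were DESeq2 size factors, library totals, no filter, DESeq2 1.42.0, limma-voom 3.58.1, only the groups compared, and leaving out libraries.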

Additional observations from a re-analysis of the deposited data

Results flagged for a closer look

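The depletion effect in N-Ras+AKT minus that in DEN+CCl4 passed edgeR's test of the difference in 1 of the 28 members and in 7 of the 37 neighbouring pathway genes, against 11.6% of all genes tested. The member was Scap, with a difference of 0.94 on the log2 scale (adjusted p = 0.0434), and its call ended in 10 of 18 alternatives. Of the neighbouring genes, Cyp7a1 had opposite signs in the models and a log2 difference of 4.53 (adjusted p = 0.00986; −1.54 in DEN+CCl4 and 2.99 in N-Ras+AKT). Hsd3b7 differed by 1.84 (adjusted p = 0.0125; −0.09 and 1.76). Nr1h3, the oxysterol receptor LXRα, differed by 1.07 (adjusted p = 0.00899; −0.29 and 0.78). These 3 passed in every alternative run. Cyp7b1 differed by 3.36 (adjusted p = 0.0344; 0.19 and 3.55), a call that ended in 12 of 18 alternatives. Lrp1 differed by 1.18 (adjusted p = 0.0322; −0.20 and 0.98) and lost its call in 11 of 18. Lbr differed by −0.85 (adjusted p = 0.0348; 0.27 and −0.58) and lost its call in 8 of 18. Coq2, of ubiquinone synthesis, had the smallest difference of the 7, at 0.53 (adjusted p = 0.0284), and lost its call in 10 of 18. Groups of 3 libraries were too small to be screened for outlying samples.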

How the results depend on the processing

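Over 19 alternative settings, 1753 of 1960 differences of single members kept their sign and their side of the threshold, 66 lost a call, 47 gained one, 94 uncalled ones differed in sign and 0 called ones reversed. Between the controls, 16 members were called; with library totals there were 9, and leaving out 1 library at a time gave 13 to 24, the highest without DEN+CCl4 control 13. Of the 16 calls, 7 held in every alternative. After depletion 15 were called, 14 with library totals, 17 with DESeq2 and 18 in a fit of only the groups compared. Leaving out 1 library gave 14 to 17, and 11 calls held throughout. For depletion in N-Ras+AKT the count was 4 members. It was 2 in a fit of only the groups compared and 2 with DEN+CCl4 depletion 6 and N-Ras+AKT depletion 17 left out together, and leaving out 1 library gave 1 (without control 3, control 15 or depletion 17) to 5. For the difference of the depletion effects the count was 1. It was 2 with library totals, 2 with DESeq2, 2 with those 2 libraries left out together and 0 to 2 when 1 library was left out. In DEN+CCl4 no member was called with depletion in any alternative. Over all genes, 63 were called there, 1066 by DESeq2, and 2 to 465 when 1 library was left out. The cause of these changes was not tested. No paired analysis was possible because the groups compared share fewer than 2 replicate numbers. With 3 libraries a group, modest differences in genes with widely spread controls, such as Hmgcs1, could not be detected.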
